A study of Mus musculus with 3 samples.

Results

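Neutrophils in the mouse brain were examined in a single-cell RNA sequencing matrix of brain tissue from a control group, an ischemic stroke group and a hemorrhagic stroke group, with 1 library per condition. The labels give an age of 10 weeks and the strain as C56BL6 for all 3 samples (the methods name C57BL/6), and no transgene was named for them. Per the methods, ischemic stroke was made by occlusion of the middle cerebral artery and hemorrhagic stroke by injection of collagenase into the striatum, and brains of several mice per condition were dissociated, so that a library does not stand for 1 animal. The sources used here do not state how long after stroke this tissue was taken. The matrix separates the libraries only by a barcode suffix from 1 to 3, which the sources used here do not pair with a condition. Accordingly the 3 libraries were described as libraries 1, 2 and 3, no condition was compared, and no test was made, because there is 1 library per condition and cells of 1 library are not replicates. T-cell-like barcodes, gated as described below, made up 10.1%, 11.1% and 0.274% of the barcodes within the limits in libraries 1, 2 and 3. The authors report similar T-cell shares in the ischemic and the hemorrhagic brain. These shares were not used to name a library by condition.

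Cells were chosen by measured values of 10 genes. A barcode was kept as a neutrophil when it had 500 UMIs or more (unique molecular identifiers, each standing for 1 captured transcript), 30% or less of them from mitochondrial genes, 0.3% or more from S100a8 and S100a9 together, a UMI in 2 or more of Retnlg, Csf3r, Cxcr2, Mmp9 and Ly6g, and under 0.5% from C1qa, C1qb and C1qc, which mark microglia and macrophages. This rule kept 315 of the 34267 barcodes within the UMI and mitochondrial limits, or 0.919% (exact 95% interval 0.821 to 1.03%, counting error only). The share differed between libraries, as given below. The other 33952 barcodes within the limits served as the comparison.

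Neutrophils are short-lived granulocytes that leave the bone marrow with granules already packed during maturation, follow chemokines and formyl peptides into injured tissue, and engulf, kill and degrade there. The proteins of primary (azurophil), specific and gelatinase granules are transcribed in that order as the cell matures in the marrow, so that most granule transcripts are low in circulating cells. In the injured brain neutrophils are among the first blood leukocytes to arrive, and they release interleukin-1β and ligands of their own receptor Cxcr2.

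Library 1 held 223 of the neutrophils, library 2 held 58 and library 3 held 34, which made up 2.30%, 0.395% and 0.345% of the barcodes within limits. Their median depth was 3164 UMIs and 982 genes per cell, against 5827 UMIs and 1946 genes in the other barcodes. By library the median was 3140, 2510.5 and 8926.5 UMIs in neutrophils, against 6055, 5512 and 6046 UMIs in the other barcodes. The neutrophils of library 3 thus held the most UMIs per cell, while the other barcodes had similar medians in libraries 1 and 3. Mitochondrial transcripts made up a median of 0.376% of neutrophil UMIs and 3.81% of the UMIs of other barcodes. The median share of S100a8 and S100a9, subunits of calprotectin, was 6.88% in library 1, 4.11% in library 2 and 26.0% in library 3. Library 3 stood apart from the others in a gene pair that chose the cells, and the values of the main genes are therefore given by library. In other barcodes, Gm42418 was at 25192 CPM (the UMIs of a gene summed over the cells of a group and scaled to the same total in every group) in library 1, 19196 in library 2 and 3834 in library 3. Apoe, a lipid carrier of microglia and astrocytes, was at 35980, 39801 and 2622 CPM there. Library 3 thus stood apart outside the neutrophils as well, in other genes, and the part of this in the neutrophil values was not tested.

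**Figure D1:**
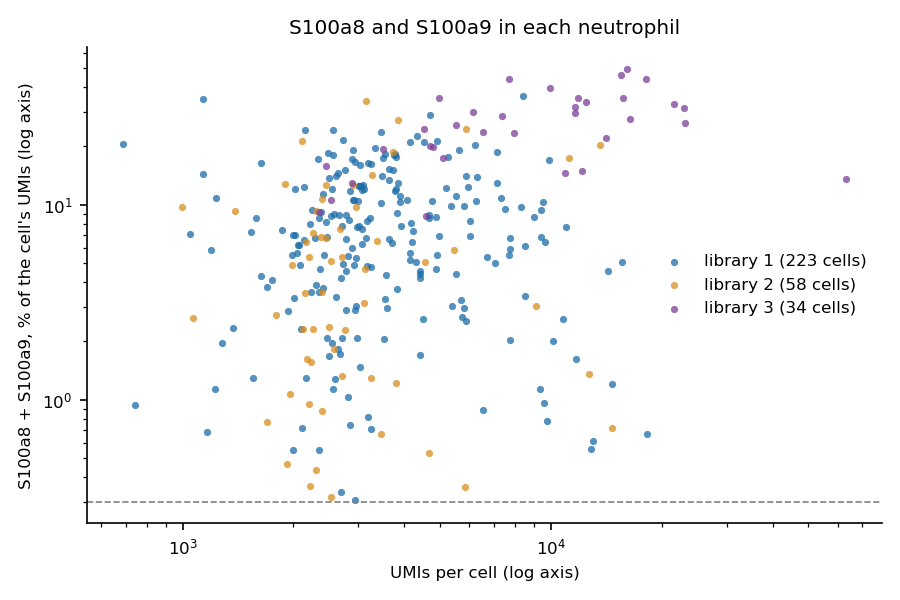
Each point is 1 of the 315 neutrophils, coloured by library, with its UMIs on the horizontal axis and the share of its UMIs from S100a8 and S100a9 on the vertical axis (both log axes); the dashed line is the 0.3% limit of the rule. Most cells of library 3 lie at the top right, with a median of 26.0% from the pair.

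Among members, the share of the pair ran from 0.307% to 49.9%, and 27 cells were under 1%. The 3 members just inside the limit had 0.307%, 0.317% and 0.335%, and the 3 barcodes just outside that met the other criteria had 0.2996%, 0.271% and 0.254%. Of the 5 further genes, 71 members had a UMI in 2, 112 in 3, 99 in 4 and 33 in all 5. A total of 32 barcodes failed the C1q limit alone, 78 the 5 genes alone and 25 the S100 limit alone. No 16-base barcode was a neutrophil in more than 1 library, and 1 neutrophil had a barcode that also occurs in another library.

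S100a8 (chr3:90668978-90670035, GRCm38) was at 33926, 28137 and 139410 CPM in the neutrophils of libraries 1, 2 and 3, and at 71.2, 14.5 and 63.7 CPM in the other barcodes. Pooled over libraries it was at 60030 CPM (exact Poisson 95% interval 59642 to 60419, counting error only). S100a9 (chr3:90692632-90695721) was at 46375, 47110 and 137629 CPM against 99.7, 23.3 and 55.6 CPM. The neutrophils, 0.919% of the barcodes and 0.624% of the UMIs, held 89.4% of all S100a8 UMIs and 88.9% of all S100a9 UMIs. Retnlg, which encodes a resistin-like protein, was at 2348, 4413 and 14266 CPM, and Ly6g, the surface antigen used to sort neutrophils, at 38.5, 58.1 and 601 CPM. Both were highest in library 3. Csf3r, the receptor for granulocyte colony-stimulating factor, was at 1156, 751 and 476 CPM, and Cxcr2 at 559, 480 and 166 CPM. These receptors had the opposite order, with the lowest level in library 3. Mmp9, the gelatinase, was at 479, 731 and 630 CPM. All these values chose the cells and are given as a description.

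The label was set beside 20 neutrophil markers that the rule did not use. Their list was drawn up with earlier results of these data known, so it describes the cells and is no independent check. Folds were taken on (CPM + 10)/(CPM + 10) of summed counts over genes with 10 CPM or more on either side, and a gene was called at 2-fold or more. Of 8712 genes, 847 were called higher in neutrophils (9.72%) and 2474 lower (28.4%), and the median log2 fold over all genes tested was -0.65. All 20 markers were called higher, with a median log2 fold of 5.90. The least of them was Itgam, an integrin subunit that microglia share, at 235 CPM against 111 CPM (log2 fold 1.03). Summed over the 20 markers, the level was 20370, 17878 and 18471 CPM in the 3 libraries and 236, 199 and 247 CPM in the other barcodes. This sum was close in all 3 libraries, but its members were not, since G0s2 and Clec4e were lowest in library 3 and Wfdc21 and Hp highest there.

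Besides the rule's genes, the 25 genes of highest fold with a UMI in 25% or more of the neutrophils were each called higher within each of the 3 libraries. Slpi, a secreted inhibitor of neutrophil proteases, led them at 4195, 3018 and 2462 CPM against 9.24, 8.64 and 2.48 CPM (log2 fold 7.72). Pooled over libraries it was at 3595 CPM (95% interval 3500 to 3691, counting error only). It had a UMI in 90.2% of neutrophils and 1.39% of other barcodes. Clec4e, the Mincle receptor for glycolipids and for material of dead cells, was at 3759, 3783 and 604 CPM (log2 fold 7.34). Its partner Clec4d was at 1616, 1196 and 312 CPM (6.36). Wfdc21 stood at 441, 649 and 4346 CPM (7.02), and Hp, which encodes haptoglobin, a hemoglobin-binding protein, at 543, 901 and 2232 CPM (6.44). These genes fall into a set that was lowest in library 3 and a set that was highest there. G0s2, an inhibitor of lipolysis, was at 5099, 3768 and 1016 CPM. Hcar2, a receptor for hydroxybutyrate and niacin, was at 2329, 2068 and 141 CPM. Slc7a11, the cystine-glutamate exchanger, was at 1967, 2049 and 53.7 CPM. Osgin1 was at 1134, 349 and 41.0 CPM. All of the last 4 had their lowest value in library 3.

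Genes that differed little between libraries included Hdc, histidine decarboxylase, the enzyme that makes histamine, at 860, 804 and 604 CPM. Trem1, an amplifier of innate signalling, was at 811, 576 and 668 CPM, and S100a11 at 4561, 3933 and 4586 CPM. Asprv1, an aspartic protease, was at 941, 988 and 1357 CPM. The rest of the 25 were S100a6, Mcemp1, Cxcl2, Wfdc17, Ccr1, Stfa2l1, Gm5483, Il1f9, Il1r2, Slfn4, Ifitm6 and Ifitm1, with log2 folds between 5.08 and 6.8. Stfa2l1 and Gm5483 both belong to the stefin A family of close copies, so reads could have been split between them. By the ratio to the highest of the 4 reference gates described below, the first 10 genes were G0s2, Asprv1, Slfn4, Il1f9, Gm5483, Hdc, Stfa2l1, Osgin1, Hcar2 and AC110211.1.

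**Figure D2:**
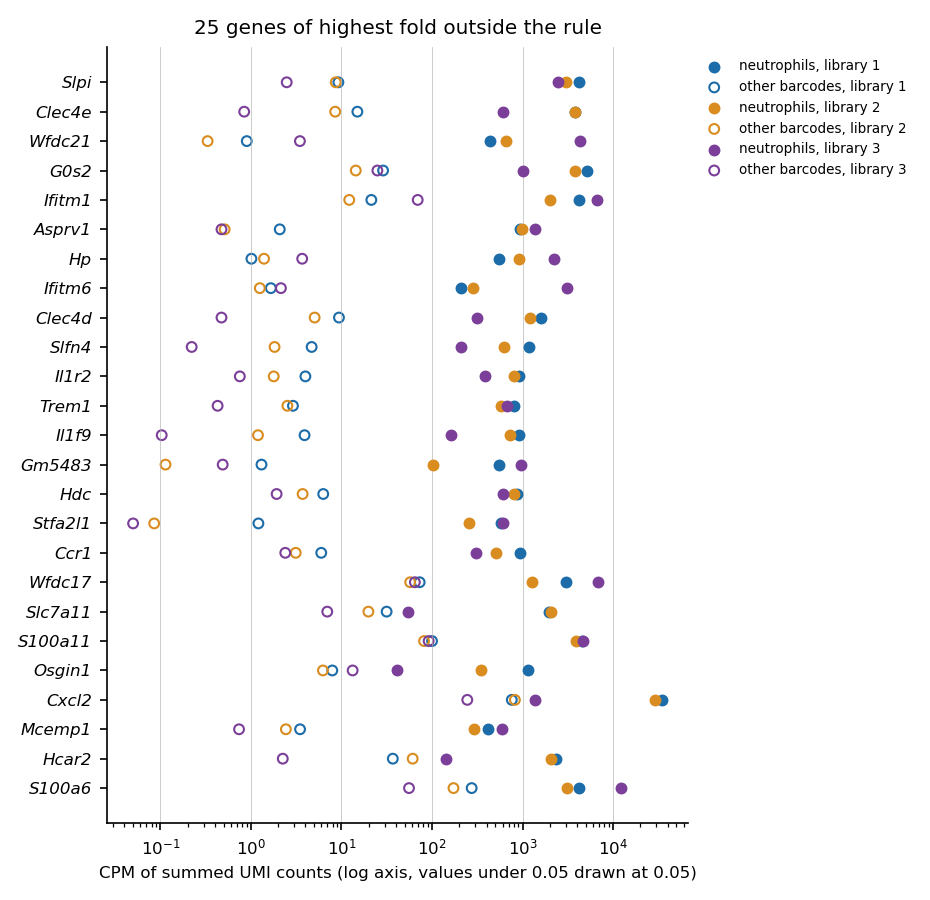
CPM (log axis) of the 25 genes of highest fold outside the rule, in the neutrophils (filled) and the other barcodes (open) of each library. In every gene and library the filled point lies right of the open point of that library; Slc7a11, Osgin1, Hcar2 and Cxcl2 have their lowest filled point in library 3.

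The 15 most abundant transcripts, without mitochondrial and ribosomal protein genes, were S100a9, S100a8, Fth1, Malat1, Cxcl2, Gm42418, Tmsb4x, Ftl1, Srgn, Actb, Nfkbia, S100a6, H3f3b, Il1b and Retnlg. A UMI was counted once per molecule at its 3′ end, so CPM was not divided by transcript length. Cxcl2, a chemokine ligand of Cxcr2, was at 34625 and 29149 CPM in libraries 1 and 2 and at 1364 CPM in library 3, so that its rank rests on the first pair of libraries. Fth1 and Ftl1, the heavy and light chains of the iron store ferritin, were at 33767 and 10426 CPM against 15498 and 4119 CPM. Fth1 was 39544, 42896 and 15103 CPM by library, and in library 3 its level was below that of other barcodes there (18302 CPM). Srgn, the proteoglycan core of granules, was at 9866, 9329 and 3179 CPM. Gm42418 overlaps ribosomal RNA sequence, and its 33090, 28752 and 1121 CPM followed the order of the other barcodes.

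Granule genes differed by class. Of 5 azurophil granule genes, Ctsg and Ms4a3 had no UMI in any neutrophil, which allows up to 1.96 CPM, Mpo (myeloperoxidase) was at 0.652 CPM and Elane (neutrophil elastase) at 3.26 CPM. Prtn3, proteinase 3, was called higher at 26.7 CPM (log2 fold 1.74), with 4.27, 4.84 and 92.1 CPM by library, but 48.8% of its UMIs came from 1 cell. The 5 genes summed to 5.34, 4.84 and 105 CPM by library, against 1.05 CPM in other barcodes. All 9 specific granule genes tested were called higher (Ltf, Camp, Ngp, Lcn2, Chil3, Cd177, Mmp8, Cybb and Cebpe), while Olfm4 was under 10 CPM. The fold of Cybb turned negative without library 3 and subcluster 5, as given with the NADPH oxidase below. All 7 tested genes of gelatinase granules and secretory vesicles were called higher too, among them Adam8, Pglyrp1, Itgam, Cd14, Anxa1 and Hp. Over all genes tested, 9.72% were called higher and 28.4% lower. The azurophil sum was thus low in libraries 1 and 2 and higher in library 3.

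Within the specific granule genes few cells carried the counts. Ngp (neutrophilic granule protein) was at 42.7, 3202 and 7571 CPM by library, Camp (the cathelicidin precursor) at 32.1, 3400 and 4141 CPM, and Ltf (lactoferrin) at 12.8, 731 and 1446 CPM. Their UMIs were found in 8.89%, 6.03% and 7.94% of neutrophils, and in 0.135%, 0.118% and 0.0884% of other barcodes. Chil3, a chitinase-like protein, had no UMI in library 1 (up to 3.21 CPM) and was at 271 and 5037 CPM in libraries 2 and 3. Lcn2, the siderophore-binding lipocalin, had a broader range, with a UMI in 49.8% of neutrophils and 558, 2257 and 10703 CPM by library. In other barcodes of library 3 Lcn2 was at 341 CPM, against 1.07 and 1.76 CPM in libraries 1 and 2. Mmp8, the neutrophil collagenase, was at 41.7, 203 and 878 CPM. All 6 genes were highest in library 3 and lowest in library 1. After each cell was thinned to 1000 UMIs, Ngp was still found in 0.452%, 5.26% and 47.1% of neutrophils by library, the same order as before thinning. Single cells weighed heavily, and the library 2 values of Ngp, Camp, Ltf and Chil3 rested mostly on 1 cell. That cell, of subcluster 5 as described with the subclusters, held 80.0% of the Ngp, 93.0% of the Camp, 88.7% of the Ltf, 98.2% of the Chil3 and 46.6% of the Lcn2 UMIs of its library. It held none of the 42 Mmp8 UMIs there. Values were therefore also taken without the cell of each library with the most UMIs of Ngp, Camp, Ltf, Chil3 and Cd177, an alternative added after the data were seen. Ngp was then at 1.08, 684 and 5936 CPM by library and Camp at 3.23, 254 and 1761 CPM. Ltf was at 12.9, 88.2 and 1122 CPM and Lcn2 at 472, 1291 and 10002 CPM. Chil3 was at 0, 5.19 and 4896 CPM, the value of library 2 being 1 UMI. Library 3 was still highest for these genes, and the gap between libraries 2 and 3 was wider than with the cell. Mmp8 was little changed, at 39.9, 218 and 929 CPM by library.

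How many of these genes a cell carried was counted for a set chosen after the values were seen. Of Ngp, Camp, Ltf, Chil3 and Cd177 (a surface partner of proteinase 3), 265 neutrophils had none, 25 had 1 and 25 had 2 or more, among them 9 with all 5. Those 25 cells lay with 1 in library 1, 3 in library 2 and 21 in library 3. They had a median of 12139 UMIs against 3024.5 UMIs in the remaining neutrophils. The part of this depth in the count was not tested.

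Ngp, Camp and Ltf lie within 1.2 Mb of each other on chromosome 9 of GRCm38, between 109847379 and 111042767. Their upstream bases are shown because each of the 3 transcripts was found in few neutrophils. These were not always the same cells. In library 1 the cell with 39 of the 40 Ngp UMIs held none of the 12 Ltf UMIs. Each run is from RefSeq (GRCm38.p6), 5′ to 3′ on the strand of the gene, and ends before the most upstream start in RefSeq or GENCODE, at chr9:110419558-110419746 (+ strand) for Ngp, chr9:109849618-109849706 (- strand) for Camp and chr9:111019042-111019270 (+ strand) for Ltf. Capitals mark letters that fit TTNNGNAA, the shared core of sites for C/EBP factors, on either strand.
Ngp: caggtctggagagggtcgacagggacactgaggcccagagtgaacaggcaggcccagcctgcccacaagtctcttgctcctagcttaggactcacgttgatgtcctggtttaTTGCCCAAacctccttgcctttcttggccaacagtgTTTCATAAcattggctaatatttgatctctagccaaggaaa
Camp: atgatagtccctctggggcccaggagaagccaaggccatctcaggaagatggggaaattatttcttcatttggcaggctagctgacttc
Ltf: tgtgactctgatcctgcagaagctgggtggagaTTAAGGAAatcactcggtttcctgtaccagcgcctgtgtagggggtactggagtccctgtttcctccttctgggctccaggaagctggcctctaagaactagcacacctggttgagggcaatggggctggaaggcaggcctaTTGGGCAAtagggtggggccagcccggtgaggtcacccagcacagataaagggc
The 189 bases of Ngp held 2 such matches, the 229 bases of Ltf 2 and the 89 bases of Camp 0. Over 27025 RefSeq promoters, windows of these lengths held a match in 31.2%, 35.1% and 16.7%. A match is a run of letters and not a shown site, and the window of Camp is short. Of the C/EBP genes, Cebpb was at 6036, 6016 and 3005 CPM in neutrophils (log2 fold 4.29), Cebpd at 193, 223 and 107 CPM (1.11), and Cebpe, which acts late in granulocyte maturation, at 7.48, 14.5 and 28.2 CPM (1.23). Cebpa was called lower, at 7.18 CPM against 54.9 CPM.

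**Figure D3:**
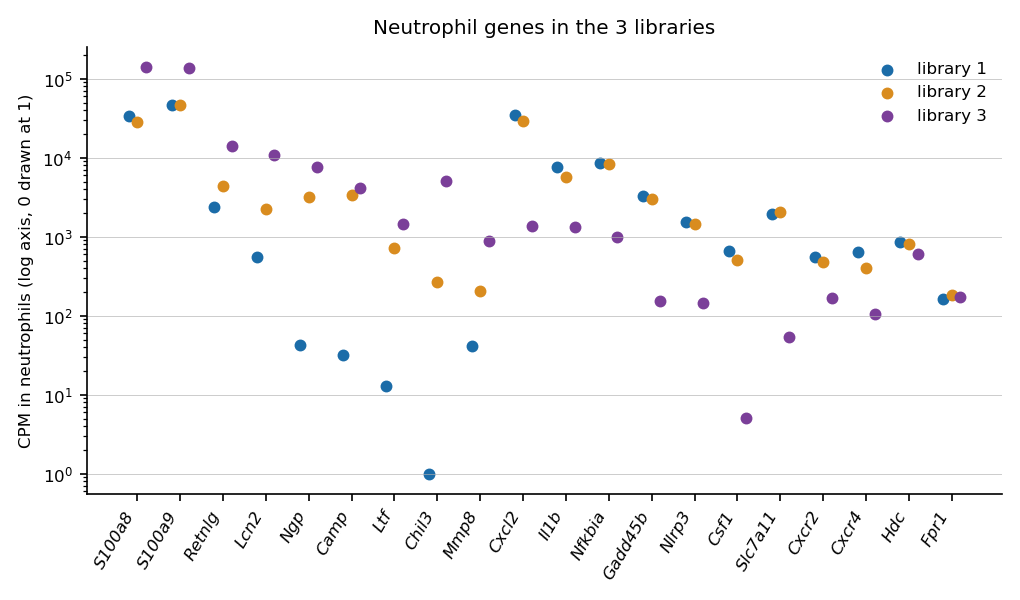
CPM in the neutrophils of each library (log axis) for 20 genes of the rule, the granules, the NF-kB and cytokine genes and the receptors. The points of library 3 lie above those of libraries 1 and 2 for S100a8 through Mmp8 and below them for Cxcl2 through Cxcr4, and all 3 lie close together for Hdc and Fpr1.

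Receptors that guide neutrophils to sites of injury were higher as a group. Of 10 chemoattractant and chemokine receptors, 8 were called higher and 1 (C3ar1) lower, beside 9.72% and 28.4% of all genes, with a median log2 fold of 3.80. Ccr1, a receptor for Ccl3 and Ccl5, was the most abundant of them over all libraries, at 927, 504 and 307 CPM against 5.98, 3.13 and 2.40 CPM (log2 fold 5.71). Ptafr, the receptor for platelet-activating factor, was at 832, 523 and 215 CPM (4.31), above Ccr1 in library 2. C5ar1, the receptor for complement C5a, was at 568, 441 and 356 CPM, with 83.7 CPM over all other barcodes (2.44), and was above Ccr1 in library 3. Fpr1 and Fpr2, which sense formyl peptides of bacteria and mitochondria, were at 170 and 151 CPM against 0.152 and 0.160 CPM. Their levels were close in the 3 libraries, at 165, 184 and 174 CPM for Fpr1 and 165, 131 and 131 CPM for Fpr2. Ltb4r1, the receptor for leukotriene B4, was at 147 CPM (3.76) and Cxcr1 at 36.5 CPM (2.20). Cxcr4, which holds neutrophils in the marrow and is known to rise as they age, was at 646, 402 and 105 CPM against 26.8, 34.5 and 3.47 CPM (3.85). Its level was lowest in library 3, where its level in other barcodes was lowest too.

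All 3 tested ligands of Cxcr2 were called higher. Cxcl2 was at 34625, 29149 and 1364 CPM in neutrophils and at 760, 822 and 245 CPM in other barcodes (log2 fold 5.28). Pooled over libraries it was at 25411 CPM (95% interval 25159 to 25665, counting error only). It had a UMI in 97.5% of neutrophils, with a median of 72 UMIs per cell, and 8 of the 315 cells had none. After thinning to 1000 UMIs, Cxcl2 was found in 98.2%, 98.2% and 52.9% of neutrophils by library and in 4.24% of T-cell-like barcodes, which should lack it. Cxcl3 was at 321, 446 and 17.9 CPM (4.46). Cxcl1 was at 296, 504 and 12.8 CPM against 13.5, 26.9 and 109 CPM, so that in library 3 it was lower in neutrophils than in the other barcodes, and 1 cell held 27.7% of its neutrophil UMIs. Of 9 other chemokines, Ccl6 was called higher (516 against 130 CPM), near the 9.72% of all genes, and 7 were called lower, beside 28.4% of all genes, with a median log2 fold of -1.76. Ccl4 was at 4133, 2989 and 427 CPM against 11158, 14388 and 2925 CPM. Ccl3 was at 3385, 4074 and 76.8 CPM against 2981, 4033 and 956 CPM, within 2-fold in libraries 1 and 2 and lower in library 3. Cxcl10, a ligand for T-cell receptor Cxcr3, was at 306 CPM against 2180 CPM.

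Among 11 interleukins and cytokines tested 5 were called higher and 3 lower, beside 9.72% higher and 28.4% lower over all genes tested, so that the lower share was near the background. Il1b was at 7561, 5750 and 1328 CPM against 284, 322 and 35.9 CPM (log2 fold 4.57), and within the libraries its log2 fold was 4.69, 4.11 and 4.87. Its level in library 3 was lower than in the others, but its fold over the other barcodes there was not. Il1rn, the antagonist of the same receptor, was at 702, 790 and 64.0 CPM (3.74), and Il1r2, the decoy receptor, at 911, 809 and 389 CPM (5.99). Il1f9, an interleukin-36 cytokine, was at 918, 717 and 161 CPM (5.92). Osm (oncostatin M) was at 358, 218 and 41.0 CPM (2.58), Tnfsf14 (LIGHT) at 118, 126 and 41.0 CPM (3.24), and Csf1 at 670, 513 and 5.12 CPM (1.95). In library 3 the level of Csf1 was below that of the other barcodes there (50.7 CPM). Tnf was at 785, 1211 and 58.9 CPM against 708, 1095 and 224 CPM, within 2-fold overall. Il1a, Il6 and Ifnb1 were called lower, and Ifnb1 (interferon-β) was at 86.5, 92.0 and 20.5 CPM against 1126, 1476 and 312 CPM.

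**Figure D4:**
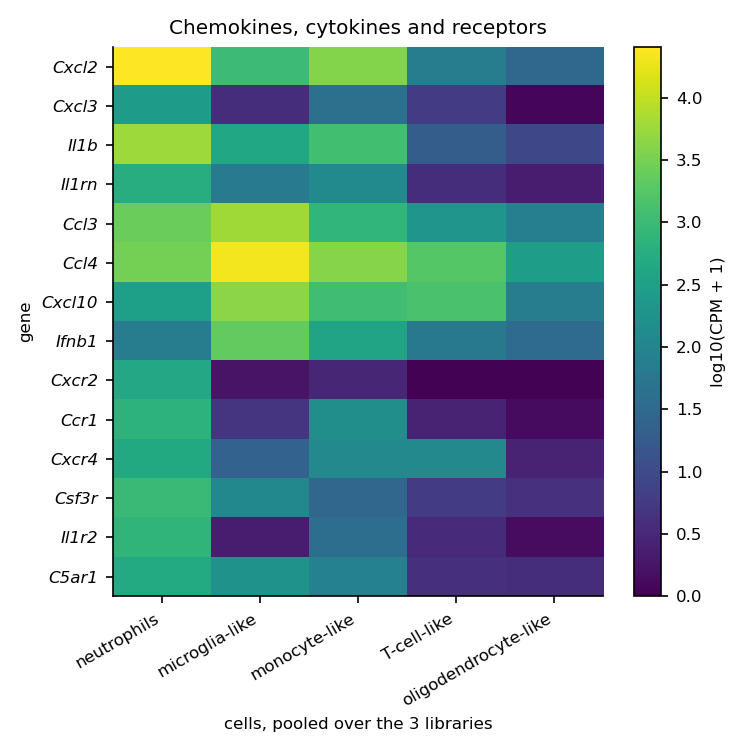
Level of 14 chemokines, cytokines and receptors as log10(CPM + 1) in neutrophils and in 4 reference gates of the same matrix, pooled over libraries. Cxcl2, Il1b, Cxcr2, Ccr1, Csf3r and Il1r2 are brightest in the neutrophil column, and Ccl4, Cxcl10 and Ifnb1 in the microglia-like column.

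For context, 4 reference gates were set from marker genes: 11029 microglia-like, 44 monocyte-like, 2640 T-cell-like and 10005 oligodendrocyte-like barcodes, with a median of 7746, 9216.5, 4733 and 6108 UMIs. Cxcl2 was at 25411 CPM in neutrophils, 3838 CPM in the monocyte-like, 1051 CPM in the microglia-like, 68.5 CPM in the T-cell-like and 28.6 CPM in the oligodendrocyte-like barcodes. Il1b followed the same order, at 5729, 1176, 439, 18.8 and 8.03 CPM. S100a8 was at 1945 CPM in the monocyte-like barcodes and S100a9 at 252 CPM. Ccl4 was highest in the microglia-like barcodes, at 21288 CPM. Cd74, a chaperone of MHC class II, was at 5136 CPM in the monocyte-like barcodes and 37.2 CPM in neutrophils. The monocyte-like gate has only 44 barcodes, so its values rest on few cells.

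Receptors for cytokines and microbial products were higher for the most part. Of 14 cytokine receptors tested, 10 were called higher and 1 (Csf1r, the receptor of macrophage growth factors) lower, where 9.72% and 28.4% of all genes were. Tnfrsf1b, a receptor for tumor necrosis factor, was at 302 CPM against 25.8 CPM, Csf2rb at 189 against 17.3 CPM and Il4ra at 174 against 29.9 CPM. Of 12 pattern recognition genes tested, 10 were called higher and 1 (Pycard) lower. Nlrp3, an inflammasome sensor, was at 1551, 1443 and 146 CPM against 154, 192 and 63.3 CPM (log2 fold 2.94), Cd14 at 1092, 1027 and 1203 CPM (1.55), and Tlr2 at 412, 262 and 113 CPM (1.34). In 13 Fc receptors and immunoreceptors 8 were called higher and 2 lower. Lilr4b was at 1135 CPM against 34.6 CPM, Cd300lf at 358 against 4.63 CPM and Pilra at 337 against 12.4 CPM, while Fcgr1 was lower at 8.48 against 113 CPM.

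Migration and killing genes followed. Of 13 adhesion and migration genes, 6 were called higher and none lower, against 9.72% and 28.4% of all genes, with Cd44, a hyaluronan receptor, at 780 CPM against 27.9 CPM. Among 7 subunits of the NADPH oxidase, which makes superoxide, 5 were called higher, with Ncf1 at 455 CPM against 50.6 CPM. Cybb, its catalytic subunit, was at 38.5, 233 and 282 CPM by library, and in library 1 it was within 2-fold of the other barcodes (log2 fold -0.34), and its pooled fold turned to -0.52 without library 3 and the 17 cells that carried oligodendrocyte genes, described with the subclusters. The 7 oxidase subunits summed to 3195 CPM in neutrophils and to 4377 CPM in the monocyte-like barcodes. Of 6 eicosanoid genes tested, 3 were called higher and 2 lower, beside 9.72% and 28.4% over all genes. The lower share of these genes was thus near the background. Alox5ap, which feeds 5-lipoxygenase, was at 740, 794 and 2155 CPM (3.59) and Ptgs2, cyclooxygenase-2, at 548, 213 and 28.2 CPM (2.50). The lower genes were Ltc4s, leukotriene C4 synthase, at 12.4 against 158 CPM, and Ptgs1, cyclooxygenase-1, at 9.13 against 71.3 CPM. Padi4, the enzyme that citrullinates histones in extracellular traps, was at 39.8 CPM against 0.0697 CPM, with a UMI in 12.4% of neutrophils.

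Nfkbia, an inhibitor of NF-kB, was among the 15 most abundant transcripts, at 8494, 8322 and 996 CPM against 1252, 1967 and 1287 CPM, so it was higher in libraries 1 and 2 and within 2-fold in library 3 (log2 fold -0.37). Mcl1, the survival factor on which neutrophils depend, was at 3289, 3071 and 1177 CPM (2.55 over all libraries), and Pim1 at 2076, 2063 and 307 CPM (3.17). Gadd45b, a stress gene, was at 3277, 3008 and 154 CPM against 253, 329 and 295 CPM. Of 12 survival and death genes 6 were called higher, with the pro-apoptotic Bcl2l11 (Bim) at 256 CPM against 37.4 CPM, and only Bcl2 was called lower. In the list of 12 glycolysis and hypoxia genes 5 were called higher and none lower, with the glucose transporter Slc2a3 at 104 CPM against 5.57 CPM and Vegfa at 277, 150 and 15.4 CPM. Of 16 interferon-stimulated genes, 8 were called higher and 2 (Ifit1 and Ifit2) lower. Over all genes, beside these survival, glycolysis and interferon lists, the shares were 9.72% higher and 28.4% lower. Within the interferon list Ifitm1 was at 4165, 2001 and 6690 CPM against 21.4, 12.2 and 69.4 CPM (6.8), while Isg15 was within 2-fold at 482 CPM against 815 CPM.

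**Figure D5:**
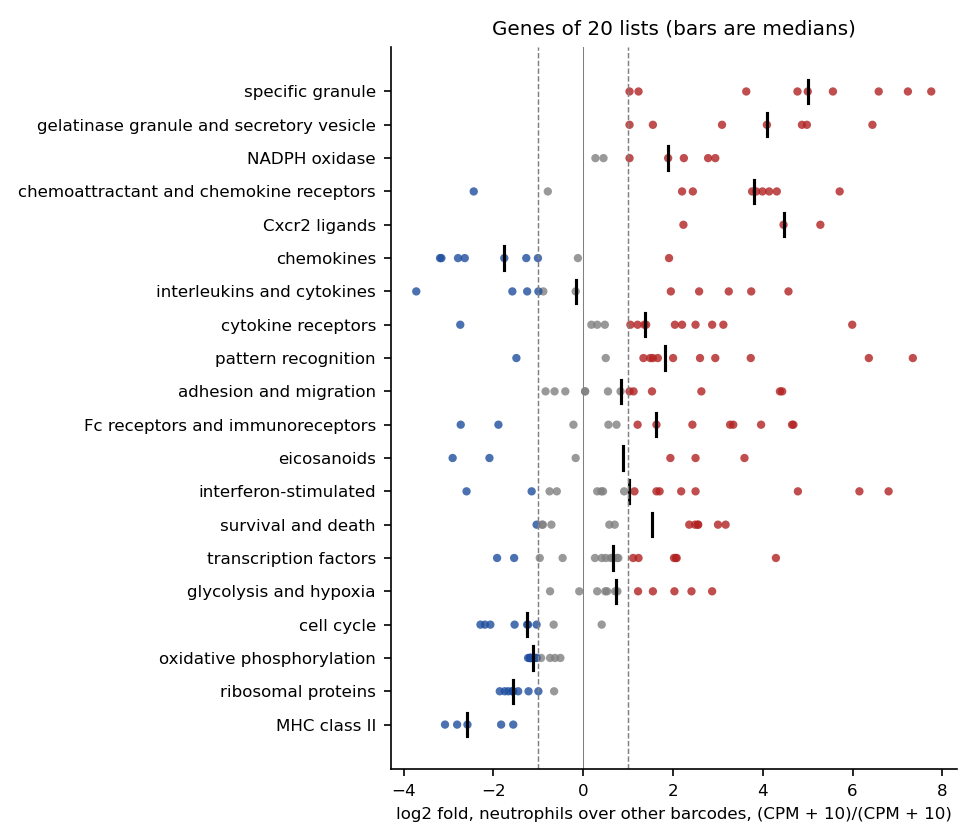
The log2 fold of neutrophils over other barcodes for the tested genes of 20 lists, 1 point per gene, red at 2-fold or more higher, blue at 2-fold or more lower and grey within, with a bar at the median of the list. The medians run from 5 for specific granule genes to -2.58 for MHC class II, and the median over all genes tested is -0.65.

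Most tested genes of the lists for MHC class II, ribosomal proteins, oxidative phosphorylation and the cell cycle were called lower. All 5 tested MHC class II genes were called lower (median log2 fold -2.58), as were 8 of 10 ribosomal protein genes (-1.57), 8 of 12 genes of oxidative phosphorylation (-1.12) and 7 of 9 tested cell cycle genes (-1.25). These stand beside a median of -0.65 over all genes tested, of which 28.4% were called lower. The sum of the ribosomal protein genes was 5900 against 22360 CPM in library 1 and 7813 against 21843 CPM in library 2, but 11696 against 13317 CPM in library 3. Rpl3 was at 302, 455 and 522 CPM in neutrophils and at 1513, 1551 and 1049 CPM in other barcodes. The ribosomal difference was thus small in library 3. Genes of oxidative phosphorylation summed to 1523 against 3957 CPM, 2621 against 3599 CPM and 2268 against 4025 CPM by library, and those of MHC class II to 75.9 against 630 CPM, 96.9 against 967 CPM and 41.0 against 278 CPM. These lists were lower in each library, within 2-fold for oxidative phosphorylation in libraries 2 and 3. Atp5b, a subunit of ATP synthase, was at 150 against 350 CPM. Top2a had 1 UMI in all neutrophils and Mki67 was at 7.18 CPM, with a UMI in 1.90% of neutrophils, so a dividing population was not detectable at this depth. The 10 genes of lowest fold included Apoe, Aif1, Ccl12, Cst7, Fcrls, Ifnb1, Ly86, Olfml3 and Trem2, of which most mark microglia, and 9 of the 10 were 2-fold or more lower within each library.

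Markers of other cells were counted in the neutrophils to show what else these barcodes held. The rule limited the C1q genes, which mark microglia and macrophages, and 11029 of the other barcodes were microglia-like. Lower microglia markers thus follow in part from the choice of cells. The 8 microglia markers were all called lower, beside 28.4% of all genes tested. They summed to 291, 257 and 238 CPM by library, against 9318 CPM in the microglia-like barcodes. In the T-cell-like barcodes of the same libraries they summed to 209, 257 and 94.4 CPM. C1qa had a UMI in 54.9% of neutrophils and 57.5% of T-cell-like barcodes, at 210 and 204 CPM, and the rule capped it. The 7 oligodendrocyte markers summed to 6758, 4892 and 2293 CPM by library against 654, 719 and 2497 CPM in the T-cell-like barcodes of the same libraries, with none at 0. The neutrophils were thus higher in libraries 1 and 2 and slightly lower in library 3, where 27 barcodes were T-cell-like. Much of that sum lay in few cells, as described with the subclusters. Ttr, a choroid plexus transcript, was at 191, 23850 and 0 CPM by library (0 allows up to 7.68 CPM in library 3), but 95.4% of its neutrophil UMIs came from 1 cell. The 8 T-cell markers summed to 146, 82.3 and 2.56 CPM (Cd8a at 0, Cd3g most abundant) and the 6 B-cell markers to 33.1, 48.4 and 15.4 CPM (3 at 0, among them Cd79a and Ms4a1). Of 8 markers of eosinophils, basophils and mast cells 6 were at 0, and Siglecf led with 20.9 CPM. The 5 platelet markers summed to 3.91 CPM and the 5 erythroid markers to 29.4 CPM. Endothelial markers summed to 6.41, 9.69 and 655 CPM by library, against 16.7, 42.2 and 3120 CPM in other barcodes, and 72.0% of the Flt1 UMIs lay in 1 cell. Mural cell markers, of which Acta2 was called higher, summed to 27.8, 1235 and 218 CPM, against 8.55, 29.7 and 877 CPM in other barcodes. Border macrophage markers, of which F13a1 was called higher, summed to 5.34, 9.69 and 125 CPM, against 45.9, 45.5 and 98.8 CPM. NK cell markers summed to 68.4, 131 and 0 CPM, against 197, 61.8 and 5.40 CPM. The part of free RNA or of joined cells in these values was not tested.

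Monocytes share several genes with neutrophils, so their markers were given in full. Of 8, Ly6c2, Plac8 and Chil3 were called higher, Fn1 and Csf1r lower, and Ccr2, Ms4a4c and Vcan were within 2-fold. Over all genes tested 9.72% were called higher and 28.4% lower, so that the lower share of this list was near the background. Summed, they stood at 479, 780 and 6805 CPM by library, of which Chil3 made up most in library 3. The monocyte-like barcodes held 3983 CPM. Ccr2, which defines inflammatory monocytes, was at 2.14, 4.84 and 33.3 CPM in neutrophils and 130 CPM in monocyte-like barcodes.

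Clustering the 315 neutrophils alone gave 5 subclusters at a resolution of 0.5, numbered by size and described by their leading genes, which define them and are no result. Subcluster 1 held 132 cells (114, 17 and 1 by library) and was led by Steap4, Cass4, Por, Gbp2 and Ifi27l2a with log2 folds over the other neutrophils between 1.36 and 1.55. Subcluster 2 held 100 cells (72, 28 and 0) and was led by Ttr, Hmox1, Ccl3, Ccl4 and E230032D23Rik. Ttr there rested on the 1 cell named above. Hmox1, heme oxygenase 1, was at 639 CPM in subcluster 2 against 112 CPM in the other neutrophils, and Ccl3 at 6183 against 1582 CPM. Tnf was at 1360 CPM and Vegfa at 405 CPM in this subcluster.

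Subcluster 3 held 42 cells, 31 of them from library 3, where it made up 91.2% of the neutrophils, against 3.14% and 6.90% in libraries 1 and 2. It was led by Chil3, Ctla2a, Crip1, S100a10 and Acta2. Its cells had a median of 8686 UMIs and 23.4% of UMIs from S100a8 and S100a9. Ngp, Mmp8 and Cd177 had a UMI in 52.4%, 69.0% and 50% of its cells, and Cxcl2 was at 3804 CPM, against 37351 CPM in subcluster 1 and 45459 CPM in subcluster 2. Of the 25 cells with 2 or more of Ngp, Camp, Ltf, Chil3 and Cd177, 22 were in subcluster 3. Some leading genes rested on single cells. A single cell held 82.9% of the Acta2 UMIs of all neutrophils, 48.5% of those of Crip1 and 47.9% of those of Ctla2a. T-cell markers stood at 261 CPM and endothelial markers at 578 CPM in subcluster 3, which held 5 called doublets, none of them from library 3. Library and subcluster cannot be told apart here, since 1 library supplied most of its cells.

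Subcluster 4 held 24 cells (18, 6 and 0 by library) and was led by Rsad2, Ifi47, Ifit3b, Ifit2 and Ifit3, all induced by interferon. Rsad2, which encodes the antiviral enzyme viperin, had a UMI in all 24 cells and was at 4492 CPM against 223 CPM in the other neutrophils. Isg15 was at 2379 CPM and Ifit1 at 1637 CPM there, and the 16 genes of the interferon list summed to 26228 CPM against between 4484 and 16856 CPM in the other subclusters. Depth was much as in subclusters 1 and 2, at a median of 3233.5 UMIs against 2941 and 2860.5 UMIs. Cxcl2 and Il1b were at 31729 and 9821 CPM in subcluster 4, with Cxcl2 below and Il1b above its level in subclusters 1 and 2.

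Subcluster 5 held 17 cells (12, 3 and 2 by library) and was led by oligodendrocyte genes, among them Gpm6b, Mal, Cnp and Mog. Cnp, a myelin enzyme, was at 2390 CPM in it and at 60.1 CPM in the other neutrophils. The 7 oligodendrocyte markers summed to 37942 CPM in it and to 878 CPM in the other neutrophils, beside the 707 CPM of T-cell-like barcodes. These cells had a median of 11710 UMIs, and 10 of the 17 were called doublets, as were 5 cells of subcluster 3, 1 of subcluster 2 and 0 of subclusters 1 and 4. None of the 34 neutrophils of library 3 was called a doublet, so the 5 in subcluster 3 were among its 7 cells from library 1 and 4 from library 2. Without the 17 cells, in a count added after the data were seen, 897 genes were called higher and 3184 lower.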

How the data were processed

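Single-cell RNA sequencing of mouse brain tissue (10x Genomics 3′ chemistry, 1 library per condition) was deposited as 1 matrix of UMI counts. The authors aligned reads and counted UMIs with Cell Ranger 3.1.0, which uses STAR, on mm10, and down-sampled reads to join the libraries. The deposited counts were used as they are. The matrix holds 31053 genes and 247726514 UMIs under 3 barcode suffixes. Of 36 duplicated symbols the first row was used. Libraries 1, 2 and 3 held 72498768, 105957232 and 69270514 UMIs. The filters of the methods were not applied to the deposited matrix, so barcodes over them remain, and they were used as an alternative.

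Counts were summed over cells and scaled to CPM. Intervals are exact (Clopper-Pearson for shares, Poisson for CPM) at 95% and cover counting error only. A count of 0 allows up to 3 UMIs. Reference gates used the same UMI and mitochondrial limits. Microglia-like barcodes had C1qa, C1qb and C1qc at 0.5% of UMIs or more and a UMI in 2 of P2ry12, Tmem119, Siglech and Gpr34. Monocyte-like barcodes had Lyz2 at 0.1% or more, 2 of Ccr2, Ly6c2, Ms4a4c, Plac8 and Fn1, and no Cd3 gene. T-cell-like barcodes had 2 of Cd3d, Cd3e, Cd3g and Trbc2. Oligodendrocyte-like barcodes had myelin genes, among them Mbp and Mobp, at 1% or more and 2 of Mog, Mag, Cldn11 and Ermn. The last 3 gates had the C1q genes under 0.5%, and barcodes in more than 1 gate were left out. Neutrophils were clustered alone by the Leiden method at a resolution of 0.5, on counts scaled to 10000 per cell, 20 components of 1000 variable genes and 15 neighbours (scanpy 1.11.5, leidenalg 0.10.2). Doublets were called with Scrublet within each library (1744 of 34267 barcodes, 16 of 315 neutrophils) and kept. Across libraries, 110 of the 16-base barcodes were shared. For shares at equal depth, barcodes were thinned to 1000 UMIs, which left out 3 neutrophils and 2282 other barcodes.

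The members, lists and the rule for named genes were chosen with earlier results of these data known. Named were the genes of the rule and of 43 lists, the 25 of highest and 10 of lowest fold with a UMI in 25% or more of the cells on the higher side, the 15 most abundant, 5 leading genes of each subcluster and the 10 of highest ratio to the reference gates. On counts simulated for this comparison with 200 changed genes among 8453 tested, 99% were recovered and 0% of the others were called. These shares describe the simulated counts only and give no error rate for the calls on the measured cells. Among the measured cells, few cells held most UMIs of some genes, and many calls did not hold within each library. Gene coordinates are from GENCODE M21 (GRCm38), where 31011 of the 31053 gene IDs matched. Some genes are not reported here.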

Additional observations from a re-analysis of the deposited data

How the results depend on the processing

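The number of neutrophils (315) stayed between 237 and 312 under 7 other limits on the barcodes, and ran from 92 (without library 1) to 281 when a library was left out. Genes called higher (847) ran from 705 to 938 and genes called lower (2474) from 2002 to 3114 without 1 library each. A pseudocount of 50 CPM gave 448 higher and 541 lower, a pseudocount of 1 CPM gave 4282 lower, and a 4-fold limit gave 351 higher and 173 lower. Of all calls, 25.5% were higher, against 45.3% at a pseudocount of 50 CPM and 67.0% at 4-fold. The median log2 fold of all genes tested was -0.65, with -0.97 at a pseudocount of 1 CPM and -0.25 at 50 CPM. It was -0.81 as a mean over cells, -0.80 after thinning and -0.52 without library 3. Folds are read relative to this median. Clustering gave 9 subclusters at a resolution of 1, 2 at 0.25, and from 2 (without library 1) to 5 when a library was left out. Without library 3 and subcluster 5 the log2 fold of Cybb turned to -0.52. Without 1 library each, that of Acta2 ran from -0.80 to 3.34, of Ifi27l2a from -0.02 to 2.60, and of Ifi47 from -0.23 to 1.42. Of 151 genes named in the text and called, 15 lost the call without library 1, 10 without library 2, 7 without library 3 and 21 at a pseudocount of 50 CPM. The causes were not tested. Alternatives without subcluster 5 were chosen after seeing the data. No paired analysis was possible because each condition has 1 library and no result comes from a test, since the cells were chosen on these counts. Folds within libraries stand in for it, and of the 847 genes called higher 769, 668 and 527 were so within libraries 1, 2 and 3 and 396 within all 3. Of the 2474 called lower, 1987, 1393 and 2048 were so, and 857 within all 3. With 34 neutrophils in library 3 and 58 in library 2, values there rest on few cells, and 5 neutrophils exceeded the upper UMI and gene limits of the methods.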
